A study of Homo sapiens with 13 samples.

Results

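NRF2 (gene NFE2L2), its inhibitor KEAP1 and 8 of its antioxidant target genes were examined in small cell lung cancer (SCLC) cells, as 10 of the 56831 genes listed by symbol in the deposited tables. The 8 targets were NQO1, HMOX1, GCLC, GCLM, TXNRD1, SRXN1, SLC7A11 and GPX4. Members were picked by symbol, with earlier results of these data known. The cells were the established SCLC lines H82 and H146, both labelled wild type, each measured as bulk RNA without treatment and under FHD-286, an inhibitor of the SMARCA4 and SMARCA2 ATPases of the BAF chromatin remodelling complexes. There were 3 untreated and 3 treated libraries of H82, and 3 untreated and 4 treated libraries of H146. Treatment was 100 nM for 14 days. Nothing states that the libraries came from separate cultures, so p-values measure the spread between these libraries, which may be technical. In bulk RNA, fewer cells that express a gene and less of its RNA per cell cannot be told apart.

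NRF2 is a transcription factor that KEAP1 holds in the cytoplasm and passes to a CUL3 and RBX1 ubiquitin ligase for destruction. Oxidants and electrophiles modify KEAP1, NRF2 then reaches the nucleus, pairs with a small MAF protein and binds antioxidant response elements, where BACH1 competes for the same sites. Most of this control is exerted on the NRF2 protein, which RNA levels do not report, and in lung cancers the pathway is known for activating mutations and for resistance to oxidative and drug stress.

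The element has the core TGACNNNGC, and it is shown here because it is the sequence through which the targets are known to be addressed. Promoter windows of RefSeq on build GRCh38.p14, from 250 bases before to 50 bases after each annotated start, were searched on both strands. Of the 10 genes, 8 had at least 1 window and 3 of those 8 held a match, against 16.1% of the 27305 genes with a window. HMOX1 and SLC7A11 had no window. Among single windows, 4 of 13 windows of these genes held a match, against 13.3% of all 35116 windows. The 6 matches follow with 10 flanking bases on each side, read 5′ to 3′ along the strand that carries the core, with the core in capitals. For KEAP1 and TXNRD1 the number names the annotated start. The first KEAP1 match lay at chr19:10502807-10502835 on the minus strand and the second at chr19:10502784-10502812 on the plus strand. The GCLM match was at chr1:93909446-93909474 on the plus strand. Those of TXNRD1 were at chr12:104215670-104215698 on the plus strand, and at chr12:104215761-104215789 and chr12:104286920-104286948 on the minus strand.
KEAP1 start 2, first: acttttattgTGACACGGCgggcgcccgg
KEAP1 start 2, second: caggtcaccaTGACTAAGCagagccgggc
GCLM: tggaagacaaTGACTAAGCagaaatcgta
TXNRD1 start 1, first: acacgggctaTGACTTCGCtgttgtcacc
TXNRD1 start 1, second: ctgtgggaacTGACGGAGCcgaaggacgc
TXNRD1 start 2: agagtcagaaTGACAAAGCagaaatccac

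Counted along the gene, the GCLM core spanned 34 to 26 bases before the start. The second KEAP1 core spanned 31 to 23 bases before its start and had the same 9 letters as that of GCLM. Both lay on the strand opposite to their gene. A match of these letters is a description of the window and was not tested for binding, and elements farther from a start were not searched.

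The deposited values were in TPM (transcripts per 1000000), which correct the reads of each gene for length and sum to 1000000 in each library, so levels of different genes can be set side by side. Reads per library were not in the tables, so counting intervals cannot be drawn. The number of genes at 1 TPM or above was 21227 to 21772 in untreated H82 and 15554 to 16633 under treatment, and it was 17476 to 17965 in untreated H146 and 18778 to 19309 under treatment. Mitochondrial genes made up 22.1% to 24.1% of all TPM in untreated H82 and 12.3% to 14.9% under treatment, with 7.56% to 8.86% and 3.82% to 11.4% in H146. The neuroendocrine markers (SYP, CHGA, CHGB, NCAM1, UCHL1, SCG2, SCG3 and STMN2) summed to 1208 to 1287 TPM in untreated H82 and 992 to 1216 TPM under treatment, and to 4032 to 4291 and 2653 to 3598 TPM in H146. The H82 sums hide opposite moves, since SYP, SCG3 and STMN2 were at 193 to 212, 208 to 238 and 169 to 182 TPM untreated and at 31.5 to 58.1, 13.6 to 47.8 and 2.43 to 33 TPM treated, while UCHL1 was at 384 to 429.5 and 808 to 1053 TPM. The H146 sums hide them as well. There UCHL1 was at 1933 to 2105 TPM untreated and 1356 to 1536 TPM treated, and SCG2 at 1127 to 1253 and 302 to 925 TPM. CHGB rose, at 70.1 to 84.2 and 194 to 284 TPM, and SYP, CHGA, NCAM1, SCG3 and STMN2 overlapped between the groups. The 6 markers of the H146 type (FOXA1, FOXA2, NKX2-1, EPCAM, CDH1 and GRP) summed to 13.1 to 20.5 TPM in 5 of the 6 H82 libraries and to 867 to 1498 TPM in H146. Treated H82 replicate 2 stood apart, with FOXA2 at 35.7, EPCAM at 32.8 and GRP at 56.4 TPM, against at most 2.62, 3.08 and 5.48 TPM in the other treated H82 libraries. FOXA1 and NKX2-1 were at 19.2 and 1.18 TPM, against at most 11.3 and 0.0403 TPM. CDH1 was not raised alike, at 0.404 TPM there and 45.5 to 90.2 TPM in H146. GRP was at 67.9 to 73.5 TPM in untreated and 0.258 to 1.13 TPM in treated H146. AKR1C3 was at 0.919 TPM in that library, 503 to 544 TPM in untreated H146 and 0.508 to 3.69 TPM in treated H146. Whether RNA of H146 cells is in that library was not tested. ALB and APOA1, genes of hepatocytes, were at 310.1 to 515 and 48.3 to 105 TPM in treated H82 and at most 0.288 TPM in untreated H82. Fibroblast markers summed to 1.7 to 2.5 TPM in untreated H82 and 7.98 to 35.3 TPM under treatment, and to 6.78 to 8.78 and 17.1 to 32.7 TPM in H146. Leukocyte markers and endothelial markers each summed to at most 5.41 TPM in any H82 library and at most 28.3 TPM in H146. The part of these cell type markers in the results below was not tested. The target SMARCA4 was at 61.8 to 80 TPM in untreated H82 and 51 to 106 TPM under treatment, and at 89.5 to 109 and 157 to 174 TPM in H146. SMARCA2 was at 4.71 to 5.61 and 3.71 to 5.32 TPM in H82, and at 11.7 to 15.2 and 7.63 to 9.14 TPM in H146.

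In both treated lines every one of the 10 genes that passed the test was higher, while the RNA of NRF2 itself did not pass it. Each line was fitted with limma on log2(TPM + 1), and an adjusted p (Benjamini-Hochberg over all genes tested, two-sided) under 0.05 was the threshold. All 10 genes passed the filter (3 or more libraries of the line at 1 TPM or above) in both lines, SRXN1 in H82 only through its treated libraries. In treated H82, 6 of 10 were higher (KEAP1, NQO1, HMOX1, TXNRD1, SRXN1 and GPX4), where 13.1% of all genes tested were higher. Without SRXN1 the count in H82 is 5. None of the 10 was lower at the threshold, where 45.5% of all genes were lower, and only SLC7A11 was lower at an unadjusted p under 0.05. Without treated replicate 2, 5 were higher and 0 lower in H82, and without treated replicate 1, 7 were higher and 1 lower. Of all 19770 genes tested, 2068 were higher and 8194 lower without treated replicate 2. Without treated replicate 1, 3820 were higher and 9955 lower. In treated H146, 5 of 10 were higher (KEAP1, NQO1, HMOX1, GCLM and TXNRD1), where 32.5% of all genes were higher. None was lower at the threshold, where 15.5% of all genes were lower, and NFE2L2, GCLC and SLC7A11 were lower at an unadjusted p under 0.05. KEAP1, NQO1, HMOX1 and TXNRD1, 4 of the 10, were higher in both lines. Treated and untreated libraries did not overlap for 6 of 10 genes in H82, against 67.8% of all genes, and for 7 of 10 in H146, against 52.9%.

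The median log2 fold change of the 10 genes was 0.68 for H82 and 0.72 for H146. That of all genes tested was -0.56 in H82 and 0.25 in H146, so that a gene at 0 stood above most genes in H82 and below most in H146. Where the libraries were scaled by the median of ratios, these medians became -0.14 and -0.02, and 9 of the 10 genes were higher in H82 with 0 lower, while in H146 4 were higher and 4 lower. Under that scaling 4793 of all 19770 genes tested were higher and 6499 lower in H82. In H146 4167 of all 19585 genes were higher and 4917 lower.

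**Figure D1:**
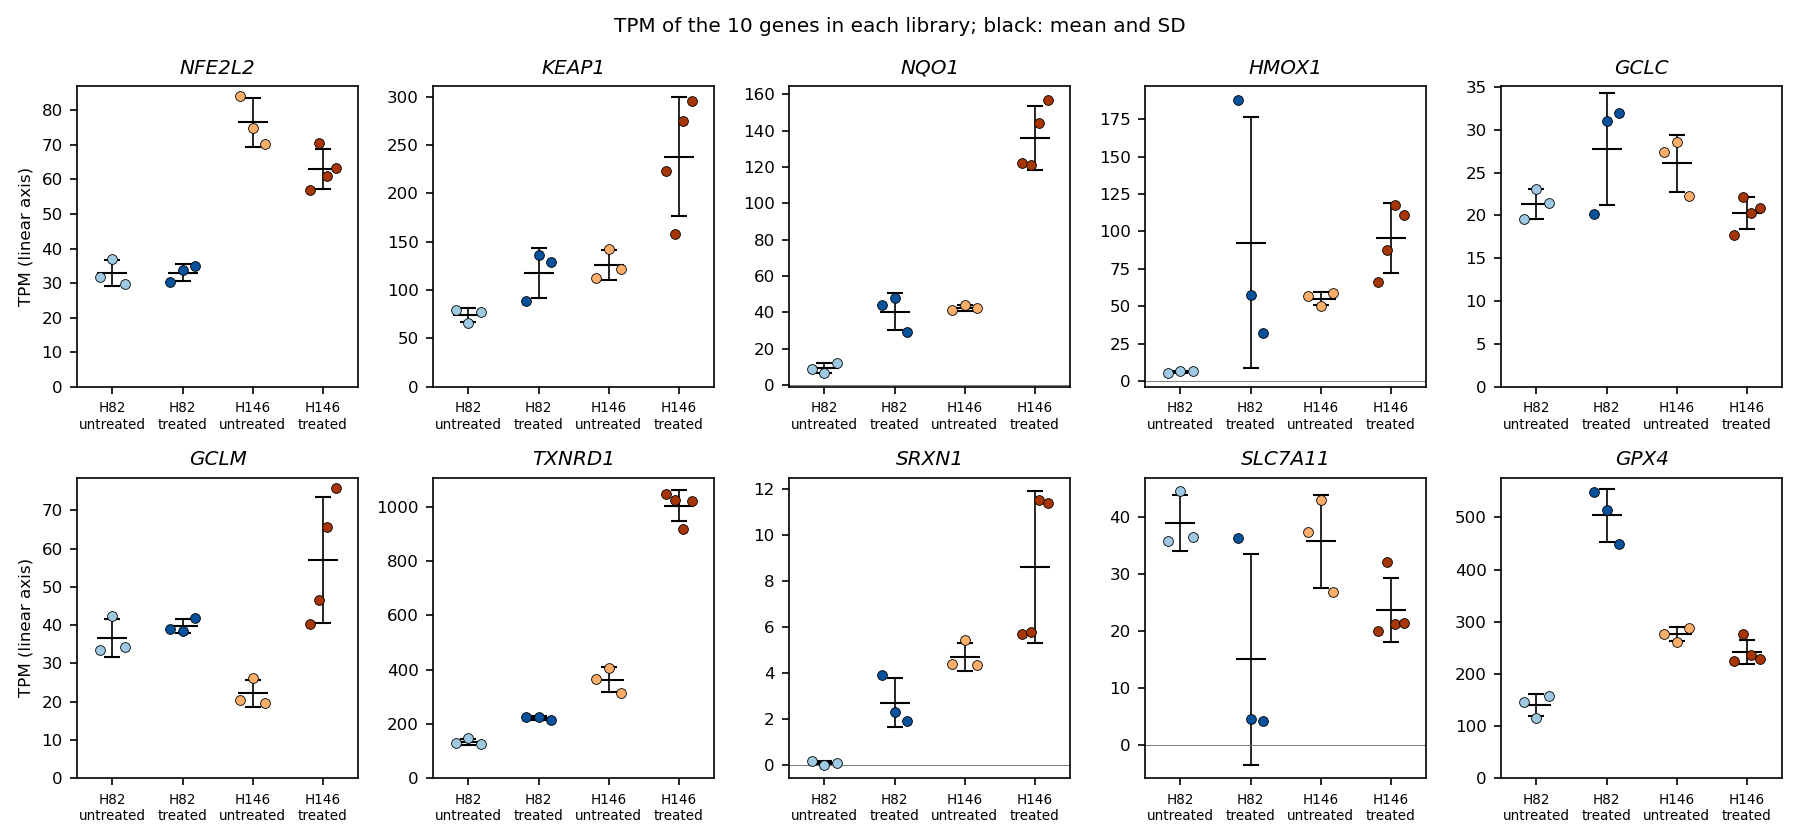
TPM (linear axis) of each of the 10 genes in every library of untreated and treated H82 (blue) and H146 (orange), with each point a library, replicates in order from left to right, and the black marks the mean and SD. NQO1 and TXNRD1 are higher in all treated libraries of both lines, GPX4 only in treated H82 (449.6 to 549 TPM), and the treated H82 libraries spread widely for HMOX1 and SLC7A11.

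NFE2L2, on chr2:177218667-177392756 (GRCh38, GENCODE release 44, minus strand), encodes NRF2. Its TPM was 31.7, 37 and 29.8 in untreated H82 and 30.2, 33.8 and 35 in treated H82. These libraries overlapped, and the log2 fold change was 0.01 (SE 0.15, 95% interval -0.34 to 0.35, adjusted p = 0.963). In H146 its TPM was 84.3, 74.8 and 70.4 without treatment and 57.1, 70.7, 60.9 and 63.3 with it. One treated library lay above the lowest untreated one, and the log2 fold change was -0.28 (SE 0.12, adjusted p = 0.0883). Under the median of ratios NFE2L2 was 0.49 in H82 (adjusted p = 0.0152) and -0.59 in H146 (adjusted p = 0.00477). In H82 its direction turned without mitochondrial genes, at -0.14, while in H146 it was below 0 under every alternative and past the threshold under some of them. HNRNPA3 and AGPS lie on the opposite strand within its span, and strand use in the counting was not stated, so reads of NFE2L2 and of these genes cannot be told apart where they overlap.

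KEAP1, on chr19:10486125-10503558 (minus strand), encodes the sensor that marks NRF2 for destruction. Untreated H82 had 79.4, 66.2 and 77.2 TPM and treated H82 had 88.6, 136 and 129 TPM. The groups did not overlap, and KEAP1 rose with a log2 fold change of 0.64 (SE 0.20, adjusted p = 0.0266). That call was lost when any H82 library other than treated replicate 1 was left out, with adjusted p up to 0.093, and without mitochondrial genes, at 0.49 (adjusted p = 0.058). In H146 the values were 113, 143 and 122 TPM without treatment and 223, 158, 275 and 296 TPM with it. All 4 treated libraries stood above the untreated ones, and KEAP1 rose with a log2 fold change of 0.88 (SE 0.22, adjusted p = 0.0105), which stayed past the threshold under each alternative.

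NQO1, on chr16:69706996-69726668 (minus strand), encodes a quinone reductase often used as a readout of NRF2. Its TPM was 9.13, 6.77 and 12.4 in untreated H82 and 44.1, 48.1 and 29.1 in treated H82. In H146 it was 41.1, 44.3 and 42.4 without treatment and 122, 121, 144 and 157 with it. In each line every treated library lay above every untreated one, and the mean of treated H82, 40.4 TPM, was near that of untreated H146, 42.6 TPM. NQO1 rose by a log2 fold change of 1.99 in H82 (SE 0.27, 95% interval 1.35 to 2.63, adjusted p = 0.000972) and of 1.65 in H146 (SE 0.13, 95% interval 1.36 to 1.93, adjusted p = 4.67e-05). These changes were above those of 98.5% of all genes tested in H82 and of 96.2% in H146. The call held under every alternative in both lines, with log2 fold changes between 1.80 and 2.49 for H82 and between 1.33 and 1.76 for H146.

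HMOX1, on chr22:35380361-35394214 (plus strand), encodes heme oxygenase 1, which opens the heme ring and releases iron. Untreated H82 had 5.42, 6.58 and 6.81 TPM and treated H82 had 188, 57.4 and 31.9 TPM. The treated libraries were all higher but differed widely among themselves, with replicate 1 the highest. HMOX1 rose with a log2 fold change of 3.30 (SE 0.58, adjusted p = 0.00272), and without treated replicate 1 the log2 fold change was 2.60 (adjusted p = 0.000507). H146 libraries had 56.8, 50.3 and 58.6 TPM of HMOX1 without treatment and 66.5, 87.7, 118 and 111 TPM with it. The groups did not overlap, and HMOX1 rose with a log2 fold change of 0.75 (SE 0.20, adjusted p = 0.0139). This call was lost under the median of ratios, at 0.44 (adjusted p = 0.0842), and without untreated replicate 2, at 0.69 (adjusted p = 0.0551).

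The glutathione genes did not move together. GCLC and GCLM encode the catalytic and the modifier subunit of glutamate-cysteine ligase, which makes the first bond of glutathione. GCLC, on chr6:53497341-53616970 (minus strand), was at 19.6, 23.1 and 21.4 TPM in untreated H82 and 20.2, 31 and 32 TPM in treated H82. The groups overlapped through treated replicate 1, and the log2 fold change was 0.34 (SE 0.21, adjusted p = 0.199), or 0.54 (adjusted p = 0.00479) without that library. In H146 GCLC was at 27.4, 28.6 and 22.3 TPM without treatment and 17.7, 22.2, 20.3 and 20.9 TPM with it. The groups stood just apart, with a log2 fold change of -0.35 (SE 0.14, adjusted p = 0.0696). Without treated replicate 2 it was -0.39 (adjusted p = 0.0409), and without untreated replicate 3 it was -0.45 (adjusted p = 0.044).

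GCLM, on chr1:93885199-93909456 (minus strand), had 33.4, 42.4 and 34.4 TPM in untreated H82 and 39, 38.6 and 41.8 TPM under treatment. These values overlapped, and the log2 fold change was 0.12 (SE 0.15, adjusted p = 0.505). In H146 GCLM was at 20.5, 26.3 and 19.7 TPM without treatment and at 40.3, 46.5, 65.7 and 75.7 TPM with it. Every treated H146 library was above every untreated one, and GCLM rose with a log2 fold change of 1.29 (SE 0.23, adjusted p = 0.00242). Under the median of ratios GCLM in H82 was 0.60 (adjusted p = 0.00786), and GCLC was 0.81 in H82 (adjusted p = 0.00816) and -0.65 in H146 (adjusted p = 0.00376). GCLC also passed the threshold under quantile normalization, at 0.70 in H82 (adjusted p = 0.00792) and -0.55 in H146 (adjusted p = 0.00822), and with library weights, at 0.56 (adjusted p = 0.00253) and -0.39 (adjusted p = 0.00405).

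SLC7A11, on chr4:138164097-138242349 (minus strand), encodes the exchanger that imports cystine, the precursor of glutathione's cysteine. It was at 35.9, 44.6 and 36.5 TPM in untreated H82 and at 36.4, 4.66 and 4.22 TPM in treated H82. Treated replicate 1 sat among the untreated libraries, and the other two treated libraries were far below them. The log2 fold change was -1.95 (SE 0.72, adjusted p = 0.0514). Without treated replicate 1 it was -2.87 (adjusted p = 0.000116), so that the call depended on that library. Without treated replicate 2, the library with raised FOXA2, EPCAM and GRP, the result did not pass. The call depended on the model as well. With every library kept, SLC7A11 passed without mitochondrial genes (-2.12, adjusted p = 0.0385), with library weights (-2.69, adjusted p = 0.000123) and with the replicate block (-1.95, adjusted p = 0.0308). In H146 SLC7A11 was at 37.4, 43 and 27 TPM without treatment and at 20.1, 32.1, 21.3 and 21.4 TPM with it. Treated replicate 2 lay above the lowest untreated library, and the log2 fold change was -0.57 (SE 0.21, adjusted p = 0.0514). Without that treated library it was -0.72 (adjusted p = 0.00742), and without untreated replicate 3 it was -0.76 (adjusted p = 0.0321).

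GPX4, on chr19:1103982-1106791 (plus strand), encodes the selenoenzyme that uses glutathione to reduce lipid peroxides and holds back ferroptosis. Its TPM was 147, 116 and 157 in untreated H82 and 549, 514 and 449.6 in treated H82. The groups were far apart, and GPX4 rose with a log2 fold change of 1.85 (SE 0.17, 95% interval 1.44 to 2.25, adjusted p = 0.000286). In H146 GPX4 was at 277, 262 and 289 TPM without treatment and at 225, 276, 237 and 229.6 TPM with it. There the libraries overlapped, with a log2 fold change of -0.19 (SE 0.11, 95% interval -0.45 to 0.07, adjusted p = 0.19). It was -0.51 (adjusted p = 0.0147) under the median of ratios and -0.21 (adjusted p = 0.0211) with library weights.

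TXNRD1, on chr12:104215779-104350307 (plus strand), encodes cytosolic thioredoxin reductase, the selenoenzyme that recharges thioredoxin with NADPH. Untreated H82 had 130.4, 147 and 127 TPM and treated H82 had 224, 227 and 213 TPM. The H146 libraries had 367, 406 and 315 TPM without treatment and 1046, 1026, 919 and 1022 TPM with it. The groups did not overlap in either line. TXNRD1 rose with a log2 fold change of 0.71 in H82 (SE 0.13, adjusted p = 0.00335) and of 1.47 in H146 (SE 0.12, adjusted p = 7.68e-05), and both calls held under every alternative. EID3, a gene on the same strand inside its span, had mean levels of 1.03 to 9.39 TPM in the 4 groups.

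SRXN1, on chr20:646615-653200 (minus strand), encodes sulfiredoxin, which repairs overoxidized peroxiredoxins. It was near the floor in untreated H82, at 0.142, 0 and 0.0759 TPM, and at 3.9, 2.31 and 1.89 TPM in treated H82. The log2 fold change was 1.75 on the log2(TPM + 1) scale (SE 0.24, adjusted p = 0.00108), which understates the change of a gene this low, and 4.05 with a pseudocount of 0.1. As SRXN1 passed the filter in H82 only through the treated libraries, its groups had to differ there and the test adds nothing to the values. H146 had 4.36, 5.4 and 4.34 TPM without treatment and 5.7, 5.76, 11.5 and 11.4 TPM with it. The treated libraries fell into a lower and a higher pair, all above the untreated ones, and the log2 fold change was 0.69 (SE 0.27, adjusted p = 0.0666). It was 0.84 (adjusted p = 0.0413) without treated replicate 1 and 0.83 (adjusted p = 0.022) without treated replicate 2.

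**Figure D2:**
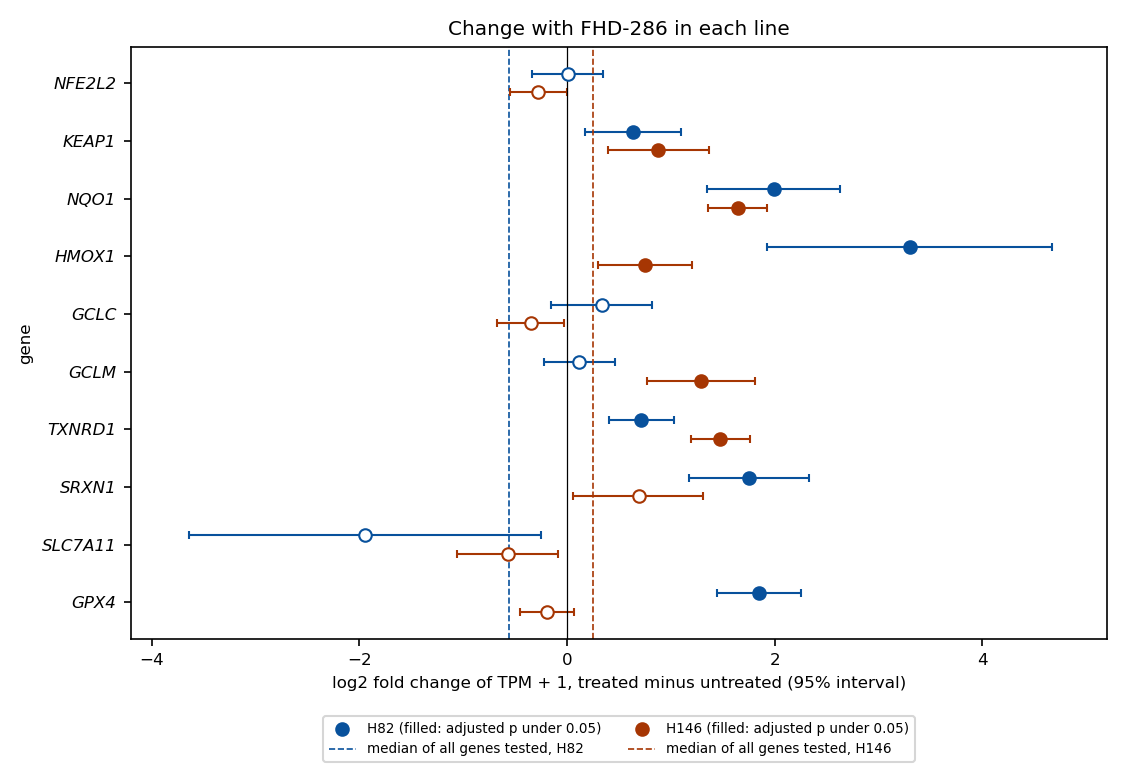
Log2 fold change of TPM + 1 (x axis, treated minus untreated, with 95% intervals) of the 10 genes (y axis) in H82 (blue) and H146 (orange), filled where the adjusted p was under 0.05, with dashed lines at the median of all genes tested. NQO1 lies far to the right in both lines, at 1.99 and 1.65, while GPX4 lies at 1.85 in H82 and -0.19 in H146.

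Whether treatment moved a gene differently in the 2 lines was tested as the interaction in 1 limma fit over all 13 libraries. The difference was past the threshold for 6 of the 10 genes, where 60.2% of all genes tested differed, so that the share of these genes is that of the background. The rise was larger in H82 for GPX4, by 2.04 on the log2 scale (SE 0.19, adjusted p = 5.03e-06), and for HMOX1, by 2.55 (SE 0.63, adjusted p = 0.00403). Without H82 treated replicate 1 the HMOX1 difference was 1.85 (adjusted p = 0.00079). SRXN1 and GCLC were also shifted toward H82, by 1.06 (adjusted p = 0.032) and 0.68 (adjusted p = 0.0272). Both of these were close to the threshold: the SRXN1 call was lost without H82 untreated replicate 2 or 3, H82 treated replicate 1, H146 untreated replicate 2 or H146 treated replicate 1 or 2, with adjusted p up to 0.0729, with library weights (0.49, adjusted p = 0.118) and with no filter (adjusted p = 0.0529), while the value was 3.27 with a pseudocount of 0.1. The GCLC call was lost without H82 untreated replicate 1, H82 treated replicate 2 or 3, H146 untreated replicate 1 or 2 or H146 treated replicate 1, with adjusted p up to 0.0686, and without mitochondrial genes (0.55, adjusted p = 0.059). The rise was larger in H146 for GCLM, at -1.17 (adjusted p = 0.00416), and for TXNRD1, at -0.76 (adjusted p = 0.00252). Under the median of ratios the GCLM difference was -0.38 (adjusted p = 0.218) and that of TXNRD1 turned to 0.06 (adjusted p = 0.806), so the order of the lines depended on the scaling for TXNRD1, while GCLM kept its direction and lost its call. For NQO1 the difference was 0.35 (95% interval -0.29 to 0.99, adjusted p = 0.324), but it was 1.14 (adjusted p = 0.00576) under the median of ratios and 0.96 (adjusted p = 0.0253) under quantile normalization. For KEAP1 it was -0.24 (95% interval -0.92 to 0.44, adjusted p = 0.525). NFE2L2 differed by 0.29 (95% interval -0.10 to 0.67, adjusted p = 0.179), and by 1.08 (adjusted p = 0.000193) under the median of ratios, 0.69 (adjusted p = 0.00416) under quantile normalization and 0.46 (adjusted p = 0.00615) with library weights. SLC7A11 differed by -1.37 (95% interval -3.05 to 0.31, adjusted p = 0.143), and by -2.30 (adjusted p = 6.51e-05) without H82 treated replicate 1.

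**Figure D3:**
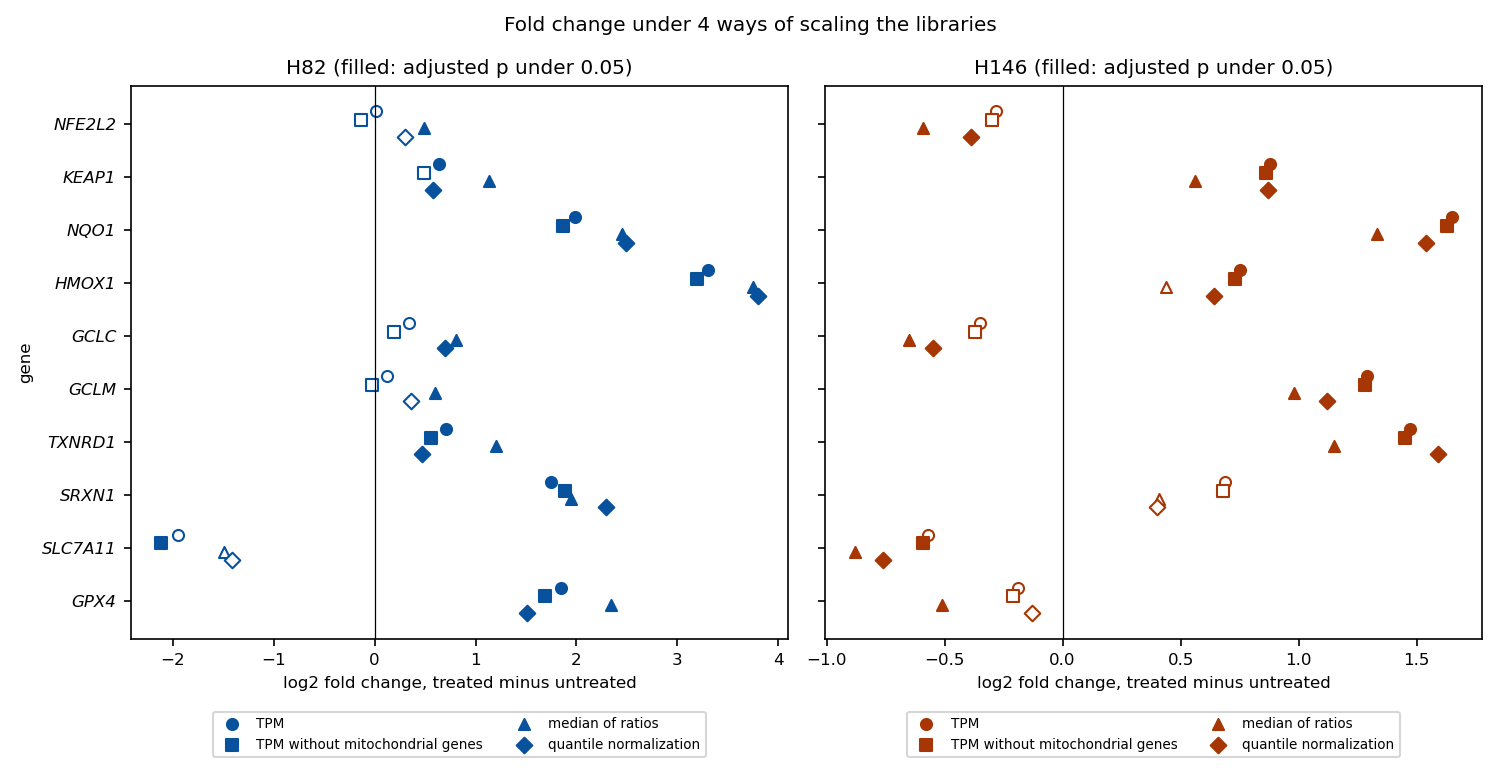
Log2 fold change (x axis, treated minus untreated) of the 10 genes (y axis) in H82 and H146 under TPM, TPM without mitochondrial genes, the median of ratios and quantile normalization, filled where the adjusted p was under 0.05. NQO1 and TXNRD1 stay right of 0 and filled in both lines under all 4, while NFE2L2 in H82 runs from -0.14 to 0.49.

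Before treatment most of these genes were lower in H82. Of the 10 genes, 7 were lower in untreated H82 than in untreated H146, where 30.5% of all genes tested were lower, and 1, GCLM, was higher, where 41.9% of all genes were higher. Line and deposited table cannot be told apart in this comparison. NFE2L2 averaged 32.8 TPM in H82 and 76.5 TPM in H146, a log2 difference of -1.20 (SE 0.13, adjusted p = 3.06e-06). HMOX1 was at 6.27 against 55.2 TPM (log2 difference -2.95, adjusted p = 8.25e-05), and NQO1 was at 9.43 against 42.6 TPM (log2 difference -2.10, adjusted p = 1.95e-06). SRXN1 differed by -2.41 (adjusted p = 7.24e-06), or by -4.88 with a pseudocount of 0.1, TXNRD1 by -1.42 (adjusted p = 6.12e-07), GPX4 by -0.98 (adjusted p = 4.36e-05) and KEAP1 by -0.75 (adjusted p = 0.00974). The KEAP1 difference was -0.51 (adjusted p = 0.0501) without mitochondrial genes. GCLM was at 36.7 against 22.2 TPM, with a log2 difference of 0.71 (adjusted p = 0.00959). GCLC differed by -0.27 (95% interval -0.65 to 0.11) and SLC7A11 by 0.14 (95% interval -1.09 to 1.36), neither past the threshold.

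By mean TPM, GPX4 at 140.3 and TXNRD1 at 135 led in untreated H82 and their libraries overlapped, whereas in untreated H146 TXNRD1 at 363 stood above GPX4 at 276. With treatment GPX4 led in H82 at 504 against 221 for TXNRD1, and TXNRD1 led in H146 at 1003 against 242 for GPX4. These pairs of neighbours did not overlap in either treated line. KEAP1 held the next rank in all 4 groups, at 74.3 and 118 TPM for H82 and at 126 and 238 TPM for H146. It overlapped HMOX1 in treated H82 and GPX4 in treated H146. SRXN1 was the lowest of the 10 in every group, and apart from its neighbour in each.

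Over the 13 libraries, each taken as its difference from the mean of its line, NQO1 had a Pearson r of 0.89 with SRXN1, 0.86 with TXNRD1, 0.83 with KEAP1 and 0.83 with HMOX1. NFE2L2 had r = -0.52 with NQO1 and r = 0.74 with GCLC. SLC7A11 had r = -0.71 with KEAP1, -0.61 with NQO1 and 0.06 with NFE2L2. These values are descriptions, since the libraries share their treatment, tables and scaling. Among 15679 genes tested in both lines, CCDC8 and PEX2 were among those most like NQO1, each with r = 0.98. Those most like NFE2L2 were MSH3 with r = 0.94, and CHEK1 and USP15 with r = 0.93 each.

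The rest of the pathway was read from 8 lists of 105 further genes. In H82, 49 of the 97 genes tested were higher and 17 lower, with a median log2 fold change of 0.47. In H146, 24 of 100 were higher and 26 lower, with a median of -0.02. The share higher was thus above that of all genes in H82 and below it in H146. Beside these counts, and those of each list below, 13.1% of all genes tested were higher and 45.5% lower in H82. In H146 32.5% of all genes tested were higher and 15.5% lower. Without H82 treated replicate 2, 40 were higher and 15 lower in H82, and without treated replicate 1, 59 and 21. Under the median of ratios the counts were 59 higher and 8 lower in H82, and 17 higher and 42 lower in H146. Under the same scaling 4793 of all 19770 genes were higher and 6499 lower in H82. For H146, 4167 of all 19585 genes were higher and 4917 lower.

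**Figure D4:**
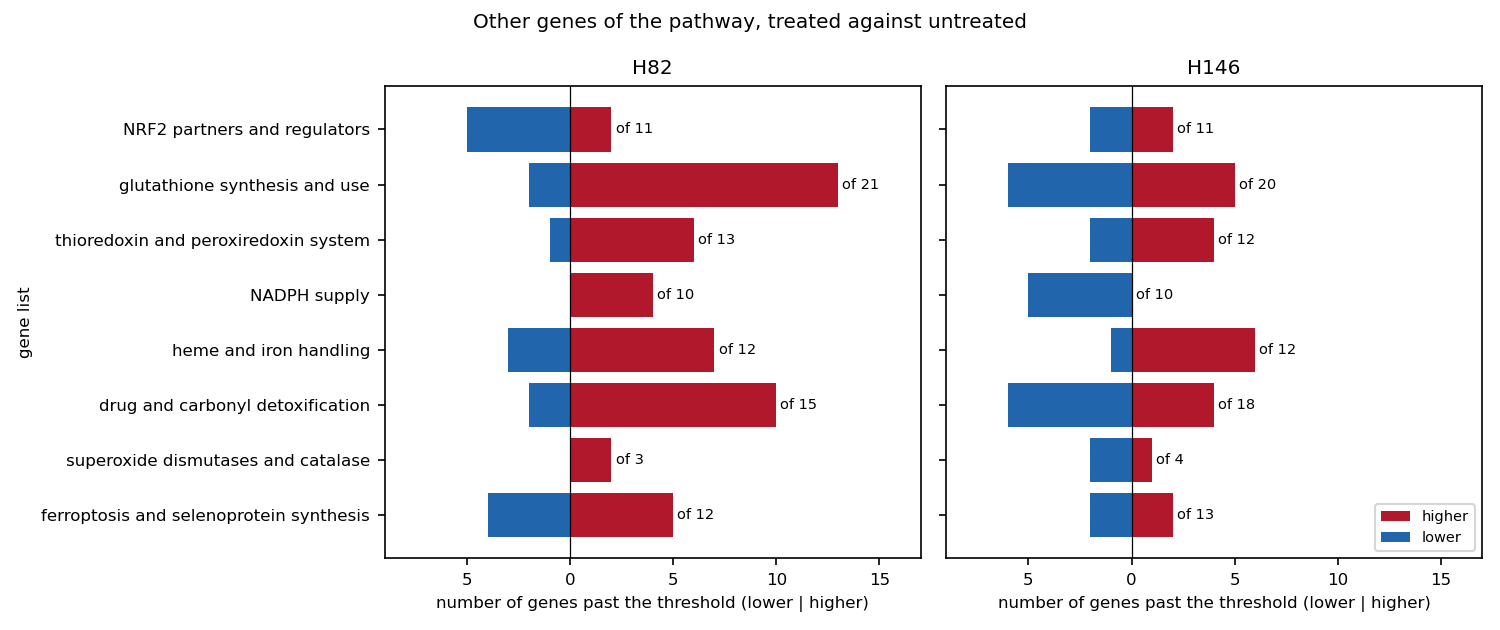
Number of genes past the threshold (x axis, lower to the left in blue and higher to the right in red) in each of 8 gene lists (y axis) in H82 and H146, with the number tested written beside each bar. In the glutathione list 13 of 21 genes are higher in H82, against 5 of 20 in H146, and in the NADPH list 4 are higher in H82 while 5 are lower in H146. Of all genes tested, 13.1% are higher and 45.5% lower in H82, and 32.5% are higher and 15.5% lower in H146.

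Among partners and regulators of NRF2, 2 were higher and 5 lower of 11 in H82, and 2 higher and 2 lower of 11 in H146. The number lower in H82 is at the share of all genes lower there, 45.5%. The 5 include BACH2, at 2.33 to 2.91 TPM in untreated H82 and 1.05, 0.184 and 0.339 TPM in treated H82. In H82 BACH2 passed the filter only through its untreated libraries. The number higher in H146 is under the share of all genes, 32.5%. BACH1, the repressor that competes with NRF2, fell in H82 from 44.4 ± 5.52 to 15.9 ± 1.20 TPM (SD, n = 3 each, log2 fold change -1.42, adjusted p = 0.000413). In H146 the BACH1 libraries were at 18.3, 17.7 and 12.3 TPM untreated and 19.1, 23, 20.2 and 22 TPM treated, and did not pass. RBX1, of the ligase that destroys NRF2, rose in H82 from 42.1 to 88.4 TPM (log2 fold change 1.03, adjusted p = 0.00495). In H146 BTRC, a substrate receptor of another ligase of NRF2, rose from 9.95 to 24.8 TPM (log2 fold change 1.23, adjusted p = 0.00198). In H82 BTRC fell, from 38 to 17.2 TPM (log2 fold change -1.15, adjusted p = 0.00528). BACH2, a relative of BACH1, fell in H146 from 5.62 to 3.09 TPM (log2 fold change -0.74, adjusted p = 0.0431), a call lost without any 1 untreated library or without treated replicate 3 or 4, with adjusted p up to 0.132.

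Of the glutathione genes, 13 were higher and 2 lower of 21 in H82, and 5 higher and 6 lower of 20 in H146. GPX7, a peroxidase of the endoplasmic reticulum, had 0.454, 0.92 and 1.57 TPM in untreated H82 and 18.9, 17.9 and 16.2 TPM in treated H82 (log2 fold change 3.27, adjusted p = 0.000162). As with SRXN1, GPX7 passed the filter in H82 only through its treated libraries, so the test adds nothing to the values. GGT1, which breaks down extracellular glutathione, fell from 5.59 to 1.46 TPM there (log2 fold change -1.47, adjusted p = 0.00498), and was -0.47 (adjusted p = 0.159) under quantile normalization. Its treated libraries in H82 were at 2.53, 0.908 and 0.949 TPM. GGT1 thus passed the filter in H82 only through its untreated libraries, and the test adds nothing to the values. SLC3A2, the heavy chain that partners SLC7A11, had 1399, 1309.6 and 1766 TPM in untreated H146 and 223, 483, 272 and 253 TPM in treated H146. It fell with a log2 fold change of -2.33 (adjusted p = 0.000266), while in H82 it was among the genes that were higher, at 142 to 167 TPM untreated and 227 to 307 TPM treated. GPX8 rose in H146 from 0.39 to 2.64 TPM (log2 fold change 1.39, adjusted p = 0.000593). Its untreated libraries there were at 0.424, 0.521 and 0.226 TPM. GPX8 thus passed the filter in H146 only through its treated libraries, and the test adds nothing to the values.

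In the thioredoxin and peroxiredoxin list, 6 of 13 were higher and 1 lower in H82, and 4 of 12 were higher and 2 lower in H146. The H146 counts are near the shares of all genes, 32.5% higher and 15.5% lower. PRDX5, a peroxiredoxin, went from 279 ± 42.8 TPM in untreated H82 to 925 ± 282 TPM (SD, n = 3 each, log2 fold change 1.69, adjusted p = 0.00143). PRDX4, a peroxiredoxin of the secretory pathway, rose in H146 from 40 to 97 TPM (log2 fold change 1.21, adjusted p = 0.00335). Of the sestrins, which respond to stress, SESN3 fell in H82 from 15.5 to 7.96 TPM (log2 fold change -0.91, adjusted p = 0.0139), and was -0.46 (adjusted p = 0.115) under the median of ratios and -0.83 (adjusted p = 0.0561) without untreated replicate 2. SESN2 fell in H146 from 158 ± 13.3 (SD, n = 3) to 49.8 ± 12.5 TPM (SD, n = 4), with a log2 fold change of -1.67 (adjusted p = 0.000232).

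The genes that supply NADPH, which glutathione and thioredoxin reductases use, had 4 higher and 0 lower of 10 in H82, and 0 higher and 5 lower of 10 in H146. IDH2, the mitochondrial isocitrate dehydrogenase that makes NADPH, was at 42.7, 40.4 and 39.5 TPM in untreated H82 and 124, 128 and 68.1 TPM in treated H82 (log2 fold change 1.31, adjusted p = 0.0039). In H146 IDH2 was among the 5 that were lower, with 188 to 204 TPM untreated and 114 to 134 TPM treated. TKT, of the pentose phosphate pathway, fell in H146 from 376 to 182 TPM (log2 fold change -1.09, adjusted p = 0.00412).

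Heme and iron genes were higher in 7 and lower in 3 of 12 in H82, and higher in 6 and lower in 1 of 12 in H146. The 3 lower in H82 include ABCB6, with a treated mean of 0.827 TPM, which passed the filter there only through its untreated libraries. BLVRB, which reduces biliverdin downstream of HMOX1, was at 7.49 to 9.83 TPM in untreated H82 and at 187, 48.6 and 61.8 TPM in treated H82 (log2 fold change 3.12, adjusted p = 0.00147). As for HMOX1, treated replicate 1 was the highest. NCOA4, the receptor for ferritin breakdown, fell in H82 from 87.7 to 47.9 TPM (log2 fold change -0.86, adjusted p = 0.00146). In H146 SLC40A1, the iron exporter ferroportin, rose from 1.13 to 4.61 TPM (log2 fold change 1.36, adjusted p = 0.00224), and BLVRA fell from 52 to 25.4 TPM (log2 fold change -1.02, adjusted p = 0.00265). BLVRA was higher in treated H82, at 149 against 96 TPM (log2 fold change 0.59, adjusted p = 0.0441).

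In the drug and carbonyl detoxification list, 10 were higher and 2 lower of 15 in H82, and 4 higher and 6 lower of 18 in H146. The 10 include AKR1C1, AKR1C2 and PTGR1, with means of 0.0146, 0 and 0.952 TPM in untreated H82. These passed the filter there only through their treated libraries. The lower genes include ABCC2 in H82 and ABCC3 in H146, with treated means of 0.59 and 0.288 TPM. Both passed the filter in that line only through their untreated libraries. PIR, an iron-binding nuclear protein, was at 26.2, 30.4 and 26.9 TPM in untreated H82 and 153, 147 and 137 TPM in treated H82 (log2 fold change 2.35, adjusted p = 9.73e-05). UGDH, which makes the sugar used for glucuronidation, fell in H82 from 75.5 to 35.2 TPM (log2 fold change -1.11, adjusted p = 0.00321). In H146 UGDH rose, from 17.5 to 55.8 TPM (log2 fold change 1.60, adjusted p = 0.000186). The aldo-keto reductase AKR1C3 fell in H146 from 519 ± 22 (SD, n = 3) to 1.82 ± 1.48 TPM (SD, n = 4), a log2 fold change of -7.68 (adjusted p = 4.71e-06), in the same libraries in which NQO1 rose. Its treated libraries there were at 2.3, 3.69, 0.781 and 0.508 TPM. AKR1C3 thus passed the filter in H146 only through its untreated libraries, and the test adds nothing to the values. ABCC1, which exports glutathione conjugates, rose in H146 from 20.6 to 65.8 TPM (log2 fold change 1.63, adjusted p = 0.000379).

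The superoxide dismutase and catalase list had 2 of 3 higher and 0 lower in H82, and 1 higher and 2 lower of 4 in H146. SOD1, the cytosolic dismutase, rose in both lines, with means of 404 and 998 TPM for H82 (log2 fold change 1.27, adjusted p = 0.00345) and of 230.0 and 422 TPM for H146 (log2 fold change 0.86, adjusted p = 0.00223). SOD3, the secreted form, fell in H146 from 4.94 to 1.57 TPM (log2 fold change -1.22, adjusted p = 0.000753). In the list of ferroptosis and selenoprotein synthesis, which surrounds GPX4 and TXNRD1, 5 were higher and 4 lower of 12 in H82, and 2 higher and 2 lower of 13 in H146. The number lower in H146 is at the share of all genes lower there, 15.5%, and the number higher is under the 32.5% of all genes. Of all genes tested in H82, 13.1% were higher and 45.5% lower. GCH1, the first enzyme of tetrahydrobiopterin synthesis, rose in both lines, with means of 1.21 and 10.4 TPM for H82 (log2 fold change 2.11, adjusted p = 0.017) and of 43.7 and 83.2 TPM for H146 (log2 fold change 0.89, adjusted p = 0.00531). In H82 its call was lost without untreated replicate 2 (adjusted p = 0.0665) or 3 (adjusted p = 0.0569). With 1.95, 0.791 and 0.902 TPM untreated, GCH1 passed the filter in H82 only through its treated libraries. The H82 test of GCH1 therefore adds nothing to the values. SECISBP2, which directs selenocysteine insertion, fell in H82 from 52.9 to 28.2 TPM (log2 fold change -0.89, adjusted p = 0.00167). EEFSEC, the elongation factor for selenocysteine, fell in H146 from 60 to 30.8 TPM (log2 fold change -0.98, adjusted p = 0.00702) and was among the genes that were higher in H82.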

How the data were processed

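RNA was sequenced from H82 and H146 cells, untreated or treated with FHD-286. Per the study's methods and notes, reads were trimmed with Trim Galore 0.4.4 and mapped with STAR to hg38, and genes were counted on GENCODE release 28. The authors deposited TPM values, 1 table per line, with 56831 genes each and no scaling beyond the sum of 1000000. How gene length was taken and whether counting used strand are not given in the sources used here. Reads per library are unknown.

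The 10 members and the 105 further genes were matched by symbol, 3 of them through an older symbol. The members, lists and tests were chosen with earlier results of these data known. Per line, limma 3.58.1 (R 4.3.3, lmFit, eBayes with trend) was run on log2(TPM + 1) for genes at 1 TPM or above in 3 or more libraries of the line. The difference between the lines and the untreated comparison came from 1 fit over 13 libraries. P-values were two-sided and adjusted over all genes tested. Settings tried as alternatives were a pseudocount of 0.1, the fit without a filter, a mean TPM above 2, median of ratios, quantile normalization, no mitochondrial genes, no trend, library weights, a threshold of 0.1, a replicate block and each library left out. A log2 ratio of plain mean TPM, with no pseudocount, was chosen after the data had been seen. Same-numbered treated and untreated libraries of a line had correlations of their deviations between -0.11 and 0.03, so the numbers were not taken to pair them. Named were all members and, per list and line, the gene with the largest rise and the largest fall past the threshold. For NQO1 and NFE2L2, the 3 genes with the highest correlation were named, except 1 that is not reported here, together with SMARCA4 and SMARCA2. The fit was tested on simulated data. Tables and plots used Python 3.11.15, numpy 2.4.6, pandas 2.3.3 and matplotlib 3.10.9. Coordinates were from GENCODE release 44, and promoter windows from RefSeq.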

Additional observations from a re-analysis of the deposited data

Results flagged for a closer look

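In treated H146, SLC7A11 was at 32.1 TPM in replicate 2 and between 20.1 and 21.4 TPM in the other 3 libraries. SESN2 was at 68.4 TPM in the same library and between 42 and 45.6 TPM in the others. In both genes that library lay farther from its neighbours than Dixon's 95% limit allows, and chance alone does this in about 1 in 20 groups.

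For 6 genes the test of the difference between the lines was past the threshold, given here as the log2 fold change in H82 minus that in H146. It was 2.55 for HMOX1, 0.68 for GCLC, -1.17 for GCLM, -0.76 for TXNRD1, 1.06 for SRXN1 and 2.04 for GPX4. GPX4 and HMOX1 stayed past the threshold under every alternative run, with ranges of 1.62 to 2.85 for GPX4 and 1.67 to 3.33 for HMOX1.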

How the results depend on the processing

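Reads per library are unknown, so low values such as SRXN1 in untreated H82 carry no counting interval. The number of the 10 genes lower in treated H82, 0 as reported, was 1 at a threshold of 0.1, without mitochondrial genes, with library weights and with the replicate block, and 0 to 1 with a library left out; that gene was SLC7A11. In treated H146 the number lower, 0 as reported, was 3 at a threshold of 0.1, 1 at a mean TPM above 2, 4 under the median of ratios, 3 under quantile normalization, 1 without mitochondrial genes and 4 with library weights, and 0 to 3 with a library left out. Of the 105 listed genes, 17 were lower in H82, against 8 under the median of ratios and 10 under quantile normalization. In H146, 26 were lower, against 42 under the median of ratios, and 24 were higher, against 40 with library weights. Of all 19770 genes in H82, 8996 were lower as reported, 6499 under the median of ratios and 4859 under quantile normalization. Of all 19585 genes in H146, 3033 were lower as reported. That number was 4917 under the median of ratios, 4082 under quantile normalization and 4806 with library weights. In H146 6356 genes were higher as reported and 9151 with library weights.

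NFE2L2 in H82 was -0.14 without mitochondrial genes and -0.06 to 0.10 with a library left out, and GCLM in H82 was -0.03 without mitochondrial genes. For the difference between the lines, KEAP1 turned to 0.57 and TXNRD1 to 0.06 under the median of ratios, and NQO1 to -0.01 with library weights. For untreated H82 against H146, SLC7A11 turned to -0.11 under the median of ratios, to -0.01 with library weights and lay between -0.05 and 0.28 with a library left out. The cause was not tested in any of these. Without a pseudocount, the log2 ratio of mean TPM of SRXN1 in H82 was 5.22. With the replicate block KEAP1 in H82 had an adjusted p of 0.0521 and SLC7A11 in H82 one of 0.0308; the numbers were not shown to pair the libraries.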

Other observations

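In treated H82, SLC7A11 and SESN2 split the libraries the same way, a pattern chosen after the values were seen. SESN2, a stress-responsive sestrin, was at 65.2, 59.4 and 64.4 TPM in untreated H82 and at 123, 18.2 and 15 TPM in treated H82, where SLC7A11 was at 36.4, 4.66 and 4.22 TPM. In both genes treated replicate 1 was well above the other two treated libraries, and HMOX1, at 188, 57.4 and 31.9 TPM, and BLVRB, at 187, 48.6 and 61.8 TPM, were also highest there. NQO1 and GPX4 did not set that library apart, at 44.1, 48.1 and 29.1 TPM and at 549, 514 and 449.6 TPM. In treated H146, replicate 2 was the highest of 4 for SLC7A11, SESN2, SLC3A2 and TKT, at 32.1, 68.4, 483 and 267 TPM.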
